A study of Mus musculus with 12 samples.

Results

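The annexins are a family of proteins that bind phospholipid membranes when calcium is present. The 8 family members considered here, Anxa1 to Anxa7 and Anxa11, were taken by name, and their probe sets were those whose platform annotation gives one of these symbols alone. That rule found 7 of the 8 genes, on 10 probe sets, among 8251 genes with a probe set of their own on the array. Anxa1 had 3 probe sets, Anxa7 had 2, and Anxa2, Anxa3, Anxa4, Anxa5 and Anxa6 had 1 each. Probe sets of 1 gene are not independent readings, and counts over the 10 probe sets give Anxa1 the most weight. The single probe set that lists Anxa11 carries 3 gene symbols, so no value is given for Anxa11. All 10 probe sets passed the filter on low values. Members, gene lists and markers were chosen with earlier results of these data known. Counts of them beside the share of all probe sets are therefore descriptions and not independent tests.

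Total RNA of skeletal muscle from mice aged 3 weeks had been hybridised to 12 arrays. The mutant line, C57BL/10-SJL.Dysf, is C57BL/10 with the mutant dysferlin allele bred in from SJL mice and is labelled Dysf -/-, and the control line, C57BL/10, is labelled Dysf +/+. Each line gave a proximal muscle, QF (quadriceps femoris, from knowledge of the study), and a distal one, TA (tibialis anterior). There were 3 arrays in each of 4 groups, Dysf_null_QF against Control_QF and Dysf_null_TA against Control_TA, and the series title asks how dysferlin deficiency bears on the contrast of proximal with distal muscle. The SJL allele came from another strain, so DNA that flanks it can also differ between the lines, and the allele is present in every cell of the animal. The labels do not say whether the arrays of a group are separate mice, so the p-values reflect array-to-array spread only, part of which may be technical.

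Dysferlin sits in the sarcolemma, the plasma membrane of the fibre. When that membrane tears, calcium enters, and dysferlin together with annexins gathers at the wound, where vesicles and the plasma membrane are joined into a patch. Anxa1 and Anxa2 are known to bind dysferlin, Anxa5 forms lattices on exposed phosphatidylserine, and Anxa6 gathers at the repair cap of injured fibres. Several annexins also act outside muscle fibres: Anxa1 limits the movement of leukocytes through the receptor Fpr2, and Anxa2 with its partner S100a10 binds plasminogen and its activator on endothelial cells and macrophages.

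In the mouse genome (GRCm38.p6) the family is scattered. Anxa1 lies at chr19:20373434-20390671, Anxa2 at chr9:69453683-69491792, Anxa3 at chr5:96793385-96845968 and Anxa5 at chr3:36448923-36475887. Anxa6 lies at chr11:54978953-55033471, Anxa7 at chr14:20455261-20480133 and Anxa11 at chr14:25842127-25886804. Anxa4, at chr6:86736840-86793634, is on the chromosome of Dysf itself (chr6:84008361-84211060), 2.53 Mb away.

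The 250 bases before the transcription start are shown for Anxa1, Anxa2 and Anxa5. Like Anxa3, for which no window was at hand, these members had positive genotype differences in both muscles. The sequences are from RefSeq of GRCm38.p6, written 5′ to 3′ on the strand of the gene, and capitals mark the motif matches described after them. The windows are chr19:20390672-20390921 (minus strand) for Anxa1, chr9:69453433-69453682 (plus strand) for Anxa2 and chr3:36475888-36476137 (minus strand) for Anxa5.
Anxa1: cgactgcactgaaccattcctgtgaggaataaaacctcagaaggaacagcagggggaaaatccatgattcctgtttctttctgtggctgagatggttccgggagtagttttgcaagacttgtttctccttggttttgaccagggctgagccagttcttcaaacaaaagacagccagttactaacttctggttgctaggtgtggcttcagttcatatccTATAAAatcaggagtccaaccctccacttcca
Anxa2: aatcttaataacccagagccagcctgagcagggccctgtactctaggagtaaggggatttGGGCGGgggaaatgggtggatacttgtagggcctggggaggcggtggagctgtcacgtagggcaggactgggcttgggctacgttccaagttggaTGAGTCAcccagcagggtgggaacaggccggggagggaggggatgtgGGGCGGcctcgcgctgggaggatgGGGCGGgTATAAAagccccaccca
Anxa5: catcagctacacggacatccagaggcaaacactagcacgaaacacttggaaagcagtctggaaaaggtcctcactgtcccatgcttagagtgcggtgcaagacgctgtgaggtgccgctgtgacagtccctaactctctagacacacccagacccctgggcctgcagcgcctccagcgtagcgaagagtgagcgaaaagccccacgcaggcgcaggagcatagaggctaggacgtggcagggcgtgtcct

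Both strands of the 300 bases from 250 before to 50 after each start were searched for 4 motifs. These were the TATA box TATAAA, the AP-1 site TGAGTCA bound by Fos and Jun, the GC box GGGCGG bound by Sp1, and the CArG box bound by serum response factor. Of 32851 windows of this length, 13.6% held the TATA box, 5.20% the AP-1 site, 35.7% the GC box and 1.63% the CArG box, and no 2 of the matches in these windows overlapped. The Anxa1 window held a TATA box 32 to 27 bases before the start and none of the other motifs. The Anxa2 window held a TATA box 17 to 12 bases before the start, an AP-1 site 95 to 89 bases before it, and 3 GC boxes, of which 2 lie between the AP-1 site and the TATA box. The printed part of the Anxa5 window held none of the motifs, and a CArG match lay 26 to 35 bases after its start. Windows were at hand for 6 of the 8 members, and Anxa4 and Anxa7 had 2 windows each. Of these, 1 window of Anxa4, both of Anxa7 and that of Anxa11 held GC boxes and none of the other motifs, and the other Anxa4 window held none of the 4. The Anxa7 windows overlap, and 1 GC box lies in both. A match describes letters in the sequence, and binding was not measured here. No window was at hand for Anxa3 and Anxa6.

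Both QF arrays with the replicate number 2 differed from the rest. Dysf_null_QF 2 had a median correlation of 0.876 with the other arrays and Control_QF 2 one of 0.866, where the remaining 10 arrays had 0.926 to 0.959, and the median deposited intensity was 107.1 and 106.1 on them but 72.8 to 84.3 elsewhere. The genotype labels were not checked against the Dysf transcript, for which the array had 0 named probe sets. All 8 muscle fibre markers were measured in both muscles. Values below are log2 of the quantile normalized intensity, with a floor at 4.53, and a difference is given ± its standard error (SE) from limma. A probe set was called where its p, adjusted by the Benjamini-Hochberg method over all 10331 probe sets tested, was under 0.05. A value with the replicate block comes from a second fit that also takes account of the replicate numbers within each muscle. The labels do not say what a shared number means, and that it pairs arrays was assumed from correlations in these same data.

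In QF, the transcript of Anxa5 rose in Dysf_null mice. That of Anxa1 rose on 1 of its 3 probe sets, a call lost in most fits that left out 1 array. Those of Anxa2 and Anxa3 had positive differences of similar size that did not pass in the fit without the replicate block. Anxa5 was 1.89-fold higher, and Anxa1 was 2.36-fold higher on that probe set. Of the 10 annexin probe sets, 2 rose and 0 fell, and 0 passed without both QF arrays numbered 2. Over all probe sets tested 0.300% were called higher and 0.155% lower in this comparison. The annexin probe sets had a median difference of 0.60 in QF, against -0.012 over all probe sets tested, and 8 of 10 were positive, against 48.5% of all. Counted by gene, on the probe set with the highest mean, 6 of 7 were positive. Annexins are made by many cell types of muscle tissue, and in these bulk samples a change in the number of cells of a type and a change in RNA per cell cannot be told apart.

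Anxa5, known for its binding to phosphatidylserine on dying or damaged cells, had log2 levels of 10.25, 10.09 and 9.94 on the Dysf_null_QF arrays and 9.12, 9.14 and 9.27 on the Control_QF arrays. The groups were far apart, with the lowest Dysf_null array well above the highest Control array. The difference was 0.92 ± 0.12 (SE, n = 3 each, 95% interval 0.66 to 1.17, adjusted p = 0.00464). In the deposited intensities, before normalization between arrays, the same probe set read 1213.7, 920.1 and 997.2 in Dysf_null_QF and 536.6, 531.9 and 630.2 in Control_QF. Without both QF arrays numbered 2 the adjusted p was 0.0561, and 0.0461 when the remaining arrays were normalized again. Fitted with the QF arrays alone it was 0.241.

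Anxa1, a regulator of inflammation and a dysferlin-binding protein, was read by 3 probe sets. On probe set 161703_f_at it had log2 levels of 8.79, 9.20 and 9.22 in Dysf_null_QF and 7.57, 7.56 and 8.35 in Control_QF. The groups did not overlap, although Control_QF 3 lay nearer to the Dysf_null arrays than to the other Control arrays in this muscle. The difference was 1.24 ± 0.23 (adjusted p = 0.0326), and the call held in 2 of 12 fits that each left out 1 array, those without Control_QF 3 (0.00864) and Control_TA 1 (0.0448). In the other 10 the adjusted p was 0.0527 to 0.154.

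On probe set 93038_f_at, Anxa1 had log2 levels of 9.11, 9.02 and 9.40 in Dysf_null_QF and 8.63, 8.40 and 8.62 in Control_QF, again without overlap. The difference of 0.63 ± 0.16 had an adjusted p of 0.146, and of 0.0104 with the replicate block. The remaining probe set, 93037_i_at, read 5.84, 6.65 and 7.14 in Dysf_null_QF and 6.35, 5.42 and 6.13 in Control_QF. These groups overlapped, and the difference was 0.58 ± 0.37 (adjusted p = 0.957, which the block did not bring under the threshold). All 3 probe sets of Anxa1 thus had positive differences of unequal size. The mean over the 3 gave 0.82 ± 0.21 (adjusted p = 0.154).

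Anxa2, which pairs with S100a10 and binds dysferlin, had log2 levels of 9.71, 9.89 and 9.95 in Dysf_null_QF and 8.94, 9.61 and 8.65 in Control_QF. The groups did not overlap, but Control_QF 2 came close to the lowest Dysf_null array. The difference of 0.78 ± 0.22 had an adjusted p of 0.208, and of 0.0375 with the replicate block. Without Control_QF 2 it was 1.05, with an adjusted p of 0.0423.

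Anxa3, which is abundant in neutrophil granules and also found in endothelial cells, had log2 levels of 8.08, 7.42 and 8.73 in Dysf_null_QF and 7.16, 6.88 and 7.53 in Control_QF. Its groups overlapped, since Dysf_null_QF 2 lay below Control_QF 3, and both arrays numbered 2 were the lowest of their group. The difference of 0.88 ± 0.30 had an adjusted p of 0.391, and of 0.0415 with the replicate block. With that block 5 of the 10 annexin probe sets rose in QF (Anxa5, Anxa2, Anxa3 and 2 of Anxa1), against 1.68% of all probe sets.

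**Figure D1:**
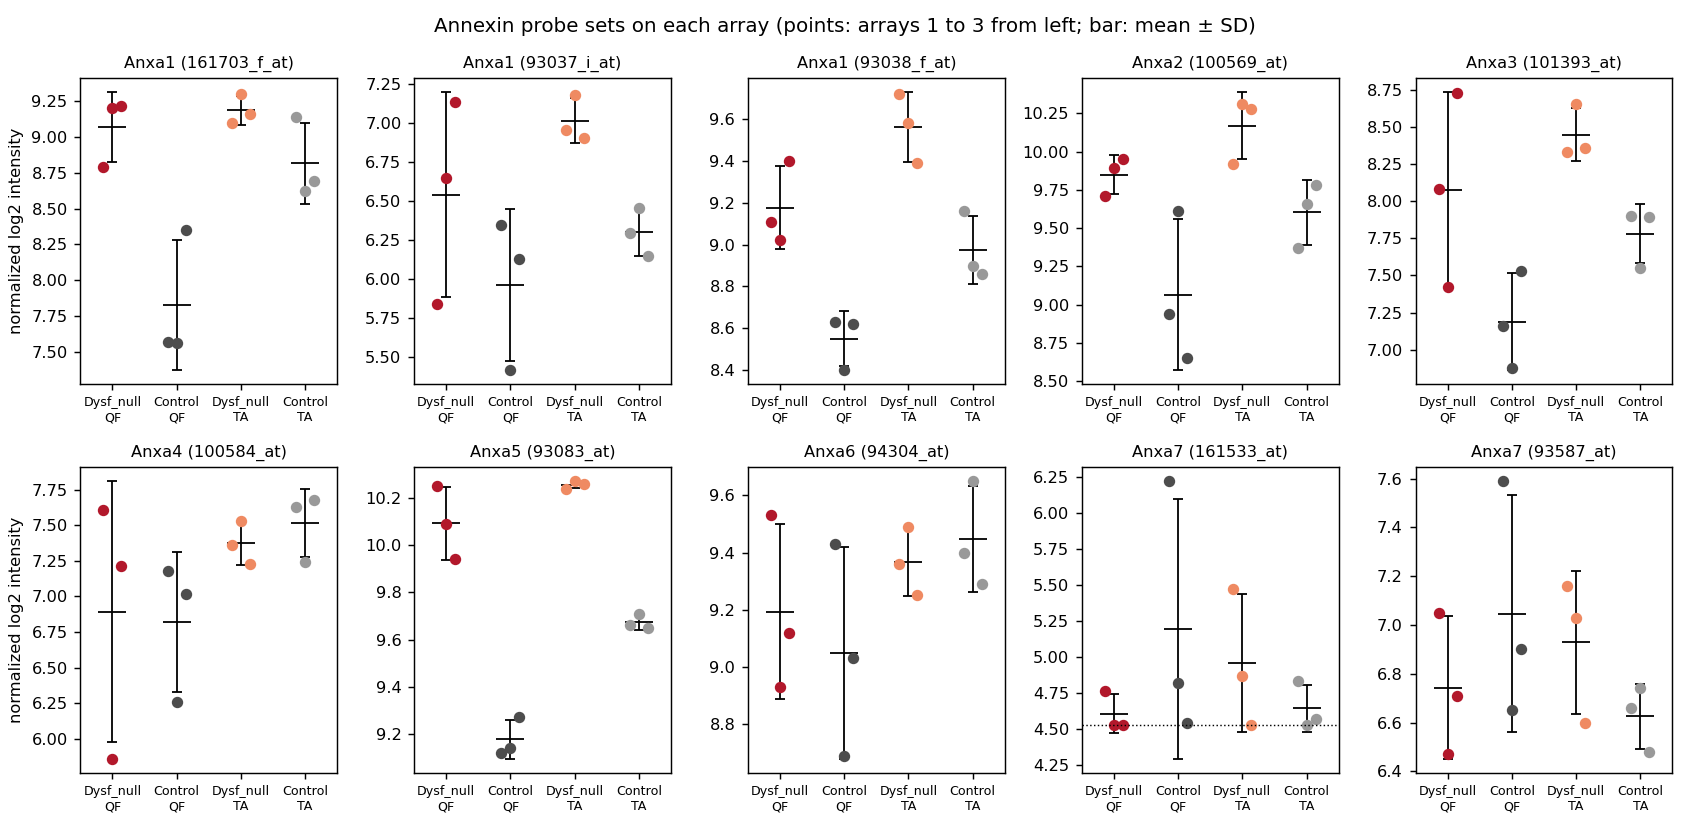
Log2 level of each annexin probe set on each array, in Dysf_null and Control arrays of QF and then of TA. Each point is 1 array (replicates 1 to 3 from the left), bars are the group mean ± SD, and the dotted line in 1 panel is the floor at 4.53. Each panel has its own log2 range, which does not start at 0. Anxa5 shows the clearest gap in both muscles, and Anxa4, Anxa6 and Anxa7 overlap between genotypes in both.

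In TA, none of the 10 annexin probe sets passed, and those of Anxa1, Anxa2, Anxa3 and Anxa5 had positive differences, as in QF. Unadjusted p-values were under 0.05 for 4 of the 10, against 4.82% of all probe sets. Over all probe sets 0.252% were called higher and 0.155% lower in TA. The median difference of the 10 was 0.47, against -0.003 over all tested, and 8 of 10 were positive, against 48.8% of all. Counted by gene, 5 of 7 were positive. In 5 of the 10, every Dysf_null array lay above every Control array, against 6.92% of all probe sets, and in QF this held for 4 of the 10, against 4.08%.

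Anxa5 had log2 levels of 10.24, 10.27 and 10.26 in Dysf_null_TA and 9.66, 9.71 and 9.65 in Control_TA. The arrays of each group were almost equal, and the gap between the groups was many times their spread. The difference was 0.58 ± 0.12 (95% interval 0.33 to 0.84, 1.5-fold, adjusted p = 0.0624, and 0.0202 with the replicate block). The SE came from a variance shared by both muscles, and Anxa5 spread more between QF arrays than between TA arrays. With the TA arrays fitted alone, Anxa5 was the 1 annexin probe set called.

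Anxa1 on probe set 93038_f_at had log2 levels of 9.72, 9.58 and 9.39 in Dysf_null_TA and 9.16, 8.90 and 8.86 in Control_TA, without overlap. The difference of 0.59 ± 0.16 had an adjusted p of 0.275, and of 0.0196 with the replicate block. On probe set 93037_i_at the levels were 6.96, 7.18 and 6.91 in Dysf_null_TA and 6.30, 6.46 and 6.15 in Control_TA, also without overlap (0.72 ± 0.37, adjusted p = 1). On probe set 161703_f_at, which rose in QF, they were 9.10, 9.30 and 9.16 in Dysf_null_TA and 9.14, 8.62 and 8.69 in Control_TA. Control_TA 1 reached the Dysf_null range there, and the difference was 0.37 ± 0.23 (adjusted p = 1).

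Anxa2 had log2 levels of 9.92, 10.31 and 10.28 in Dysf_null_TA and 9.37, 9.66 and 9.78 in Control_TA. The groups did not overlap, and the difference of 0.57 ± 0.22 had an adjusted p of 0.78. Anxa3 had log2 levels of 8.33, 8.65 and 8.36 in Dysf_null_TA and 7.90, 7.55 and 7.89 in Control_TA. These groups did not overlap either, unlike in QF, and the difference of 0.67 ± 0.30 had an adjusted p of 1. The replicate block did not bring Anxa2 (0.161) or Anxa3 (0.153) under the threshold in TA.

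Averaged over both muscles, Anxa5 rose in Dysf_null mice, as did Anxa1 on probe sets 161703_f_at and 93038_f_at. Anxa5 was 1.68-fold higher (0.75 ± 0.08, 95% interval 0.57 to 0.93, adjusted p = 0.000717). The call held in 12 of 12 fits that each left out 1 array, with differences of 0.71 to 0.79. Of all the alternatives run for it, median scaling alone ended it (adjusted p = 0.243).

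Anxa1 was 1.75-fold higher on probe set 161703_f_at (0.81 ± 0.16, adjusted p = 0.0313) and 1.53-fold higher on 93038_f_at (0.61 ± 0.11, adjusted p = 0.0178). Its remaining probe set gave 0.65 ± 0.26 (adjusted p = 0.508). When 1 array was left out, the call on 161703_f_at held without Dysf_null_QF 1, Control_QF 3 or Control_TA 1 and was lost in the other 9 fits (adjusted p of up to 0.108). The call on 93038_f_at was lost without Dysf_null_TA 1 (0.0598), Dysf_null_TA 2 (0.0614), Control_TA 2 (0.0674) or Control_TA 3 (0.0594). In all, 3 of 10 annexin probe sets rose and 0 fell in the average, against 0.784% called higher and 0.310% lower over all probe sets. Positive average differences were seen for 8 of the 10, against 47.6% of all. These 8 include Anxa6 (0.03) and Anxa7 on 93587_at (0.00 when rounded). Counted by gene, on the probe set with the highest mean, 6 of 7 were positive.

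Anxa2 had an average difference of 0.68 ± 0.15 (adjusted p = 0.0603, and 0.00978 with the replicate block). Anxa3 had one of 0.78 ± 0.21 (adjusted p = 0.132, and 0.0102 with that block). Both therefore passed in the average once this pairing was assumed, and 5 of the 10 annexin probe sets rose there, against 2.71% of all. Single arrays decided both values in the fit without the block: without Control_QF 2 the adjusted p of Anxa2 was 0.00609, and without Dysf_null_QF 2 that of Anxa3 was 0.0283. Without both QF arrays numbered 2, the average passed for Anxa5 (adjusted p = 0.00452), Anxa2 (0.0169), Anxa3 (0.0433) and Anxa1 on 93038_f_at (0.0319), and did not for Anxa1 on 161703_f_at (0.123).

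**Figure D2:**
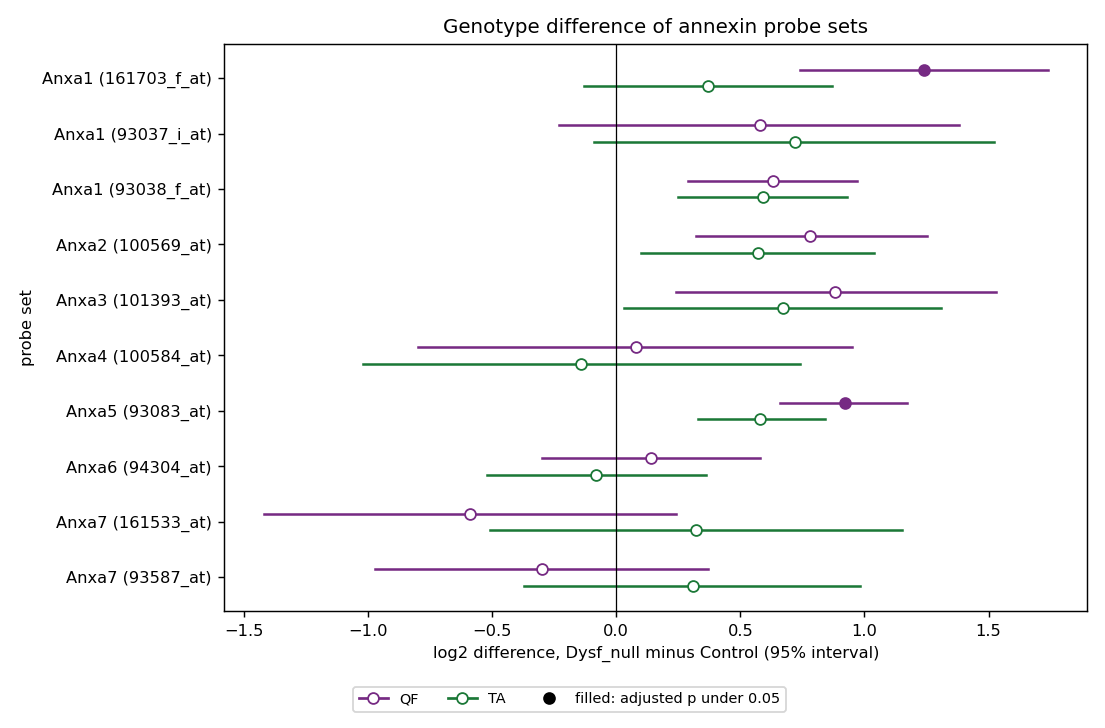
Genotype difference (Dysf_null minus Control, log2) of each annexin probe set in QF and in TA, with the 95% interval of the limma fit. Filled points passed at an adjusted p under 0.05, which in the fit without the replicate block was so for Anxa5 and 1 probe set of Anxa1, both in QF.

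Anxa4, Anxa6 and Anxa7 did not pass in any genotype comparison, and their groups overlapped in both muscles. Anxa4, a membrane-aggregating annexin best known from epithelia, had log2 levels of 7.61, 5.86 and 7.21 in Dysf_null_QF and 7.18, 6.26 and 7.02 in Control_QF. Both arrays numbered 2 were the lowest of their group. In TA it had 7.36, 7.53 and 7.23 in Dysf_null mice and 7.63, 7.24 and 7.68 in Control mice. Its average difference was -0.03 ± 0.29, with a 95% interval of -0.65 to 0.59.

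Anxa6, a large annexin with a doubled core that is abundant in muscle, had log2 levels of 9.53, 8.93 and 9.12 in Dysf_null_QF and 9.43, 8.69 and 9.03 in Control_QF. In TA it had 9.36, 9.49 and 9.25 in Dysf_null mice and 9.40, 9.65 and 9.29 in Control mice. The genotypes overlapped in both muscles, and the average difference was 0.03 ± 0.14 (95% interval -0.28 to 0.34). That interval leaves out the average differences measured for Anxa5, Anxa2 and Anxa3, although a difference between members was not tested.

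Anxa7, once called synexin and known for fusing vesicles, was read by 2 probe sets. On 93587_at it had log2 levels of 7.05, 6.47 and 6.71 in Dysf_null_QF and 7.59, 6.65 and 6.90 in Control_QF. In TA the same probe set had 7.16, 7.03 and 6.60 in Dysf_null mice and 6.66, 6.74 and 6.48 in Control mice. The differences were -0.30 ± 0.31 in QF and 0.31 ± 0.31 in TA, and both groups overlapped in each muscle. The other probe set, 161533_at, lay between the floor and 6.22 on the 12 arrays, with differences of -0.59 ± 0.38 in QF and 0.32 ± 0.38 in TA.

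The order of the 4 group means was the same for 6 of the 10 probe sets: Dysf_null_TA highest, then Dysf_null_QF, Control_TA and Control_QF. These were the 3 probe sets of Anxa1 and those of Anxa2, Anxa3 and Anxa5. The share of all probe sets with this order was not computed, so the count is a description only. For Anxa5 the means were 10.26 ± 0.01 in Dysf_null_TA, 10.09 ± 0.16 in Dysf_null_QF, 9.67 ± 0.04 in Control_TA and 9.18 ± 0.08 in Control_QF (SD, n = 3 each). The highest pair overlapped, and the other neighbours were apart. For the other genes the neighbours in that order overlapped, except Control_TA and Control_QF for Anxa3 and for 2 probe sets of Anxa1.

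Between the muscles, 0 of 10 annexin probe sets passed in either genotype. In Dysf_null mice all 10 had a positive difference (TA minus QF), against 52.2% of all probe sets, with a median of 0.34, against 0.019 over all tested. No annexin group stood fully apart there, against 5.71% of all probe sets that did so on the higher side. Over all probe sets 0.0968% were called higher in TA of Dysf_null mice, and an unadjusted p under 0.05 was seen for 1 of the 10 annexin probe sets, against 5.72% of all. That was Anxa1 on 93038_f_at (0.38 ± 0.16, unadjusted p = 0.0301, adjusted p = 0.811), while Anxa5 gave 0.16 ± 0.12.

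In Control mice 8 of 10 were positive between the muscles, against 49.9% of all probe sets, with a median of 0.46, against 0 over all tested. In 5 of the 10 every TA array lay above every QF array, against 8.16% of all probe sets. Over all probe sets 0.407% were called higher. An unadjusted p under 0.05 was seen for 4 of the 10, against 9.86% of all. Nearest to the threshold were Anxa1 on 161703_f_at (0.99 ± 0.23, adjusted p = 0.0866) and Anxa5 (0.50 ± 0.12, adjusted p = 0.0941). Without Control_QF 3 there was 1 annexin call in this comparison, that probe set of Anxa1 (1.25, adjusted p = 0.0127). Anxa4 gave 0.70 ± 0.41 and Anxa7 on 93587_at gave -0.42 ± 0.31.

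The interaction (the genotype difference of TA less that of QF) had 0 of 10 annexin probe sets past the threshold, and 1 of the 10 had an unadjusted p under 0.05, against 3.05% of all. Over all probe sets 0.0290% were called higher and 0.0387% lower, and 3 of the 10 annexin values were positive, against 49.5% of all. The value of Anxa1 on 161703_f_at was -0.87 ± 0.32 (unadjusted p = 0.0191, adjusted p = 1), and that of Anxa5 was -0.33 ± 0.17 (unadjusted p = 0.066, adjusted p = 1). The call of both genes in QF and its absence in TA are thus not shown to be a difference between the muscles.

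**Figure D3:**
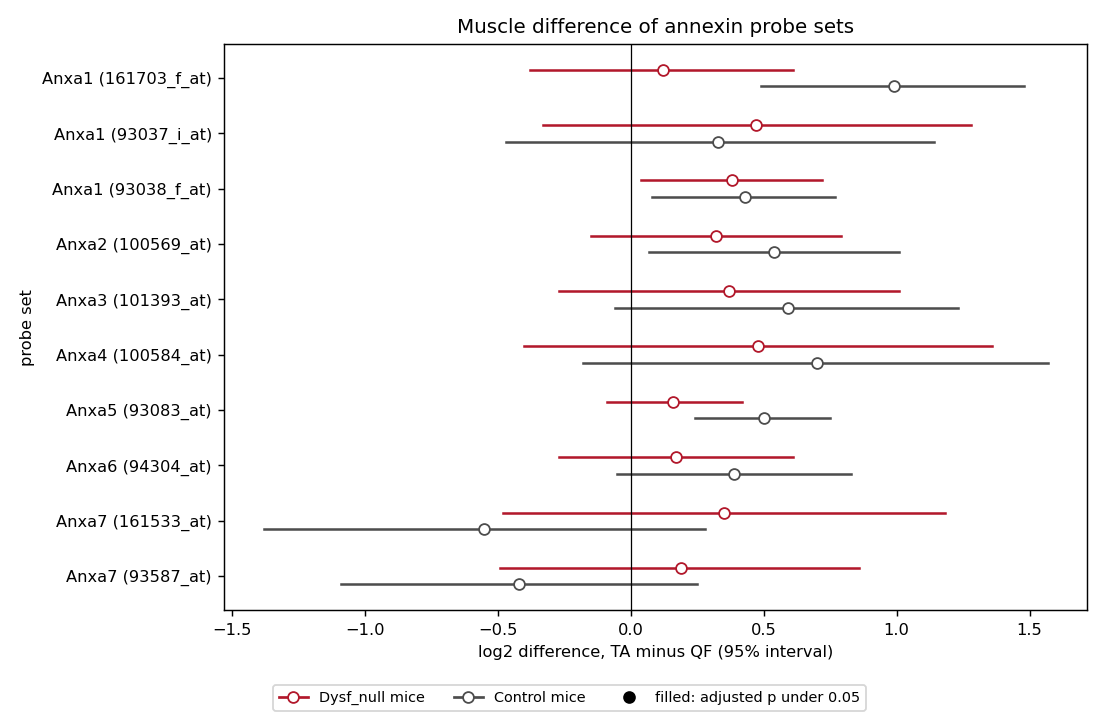
Muscle difference (TA minus QF, log2) of each annexin probe set in Dysf_null and in Control mice, with the 95% interval of the limma fit. No point is filled, since none passed. The Control value of Anxa1 on 161703_f_at (0.99) is the largest, and both Anxa7 probe sets are negative in Control mice (-0.55 and -0.42).

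Among 15 binding partners of annexins, 13 were measured, on 21 probe sets. S100a6, a small calcium-binding protein that binds Anxa2, Anxa6 and Anxa11, rose in QF and in the average, and the other 12 did not pass in any genotype comparison in the fit without the replicate block. Its log2 levels were 10.63, 10.65 and 10.58 in Dysf_null_QF and 9.57, 9.09 and 9.78 in Control_QF. In TA they were 11.06, 11.04 and 11.15 in Dysf_null mice and 10.54, 10.70 and 10.73 in Control mice. Neither muscle showed overlap, and the gap was wider in QF.

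The difference of S100a6 was 1.14 ± 0.15 in QF (2.20-fold, adjusted p = 0.00617), 0.42 ± 0.15 in TA (adjusted p = 0.694, and 0.0455 with array weights) and 0.78 ± 0.11 in the average (1.72-fold, adjusted p = 0.00281). The calls in QF and in the average held in 12 of 12 fits that each left out 1 array. The QF call was lost without both QF arrays numbered 2 (0.93, adjusted p = 0.0513), and with the QF arrays fitted alone (adjusted p = 0.246). S100a6 was also higher in TA than in QF of Control mice (1.18 ± 0.15, adjusted p = 0.00205), and the corresponding value in Dysf_null mice was 0.46 ± 0.15 (adjusted p = 0.597). The interaction was -0.71 ± 0.22 (adjusted p = 0.914).

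S100a4, a relative that binds Anxa2, had log2 levels of 8.35, 7.82 and 7.74 in Dysf_null_QF and 7.23, 7.02 and 7.45 in Control_QF. In TA it had 8.46, 8.67 and 8.87 in Dysf_null mice and 8.03, 7.87 and 8.33 in Control mice. The groups did not overlap in either muscle, and the average difference was 0.66 ± 0.16 (adjusted p = 0.0769). The adjusted p was 0.0158 with the replicate block, 0.0276 with array weights and 0.0478 with the deposited scaling alone.

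S100a10, the partner with which Anxa2 forms a tetramer, had log2 levels of 10.35, 9.37 and 10.04 in Dysf_null_QF and 9.87, 8.64 and 9.21 in Control_QF on probe set 92539_at. The groups overlapped, and each Dysf_null array lay above the Control array of the same number. The QF difference was 0.68 ± 0.28 (adjusted p = 0.66, and 0.00867 with the replicate block). In the average it was 0.47 ± 0.20 (adjusted p = 0.583, and 0.00613 with that block). A second probe set of S100a10 gave 0.27 ± 0.28.

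Plat, the tissue plasminogen activator that Anxa2 and S100a10 hold at cell surfaces, gave 0.35 ± 0.16 in the average (adjusted p = 0.64), and S100b, a glial relative, gave 0.37 ± 0.20 (adjusted p = 0.802). The list had a median difference of 0.43 in QF, 0.15 in TA and 0.35 in the average, and 12, 9 and 10 of its 13 genes were positive in them, against 48.5%, 48.8% and 47.6% of all probe sets. Without the block 1 of the 13 genes rose in QF, 0 in TA and 1 in the average, against 0.300%, 0.252% and 0.784% of all probe sets. With it 2, 0 and 3 did so, against 1.68%, 0.920% and 2.71%. A gene counted as risen where any of its probe sets passed, while the shares are per probe set.

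**Figure D4:**
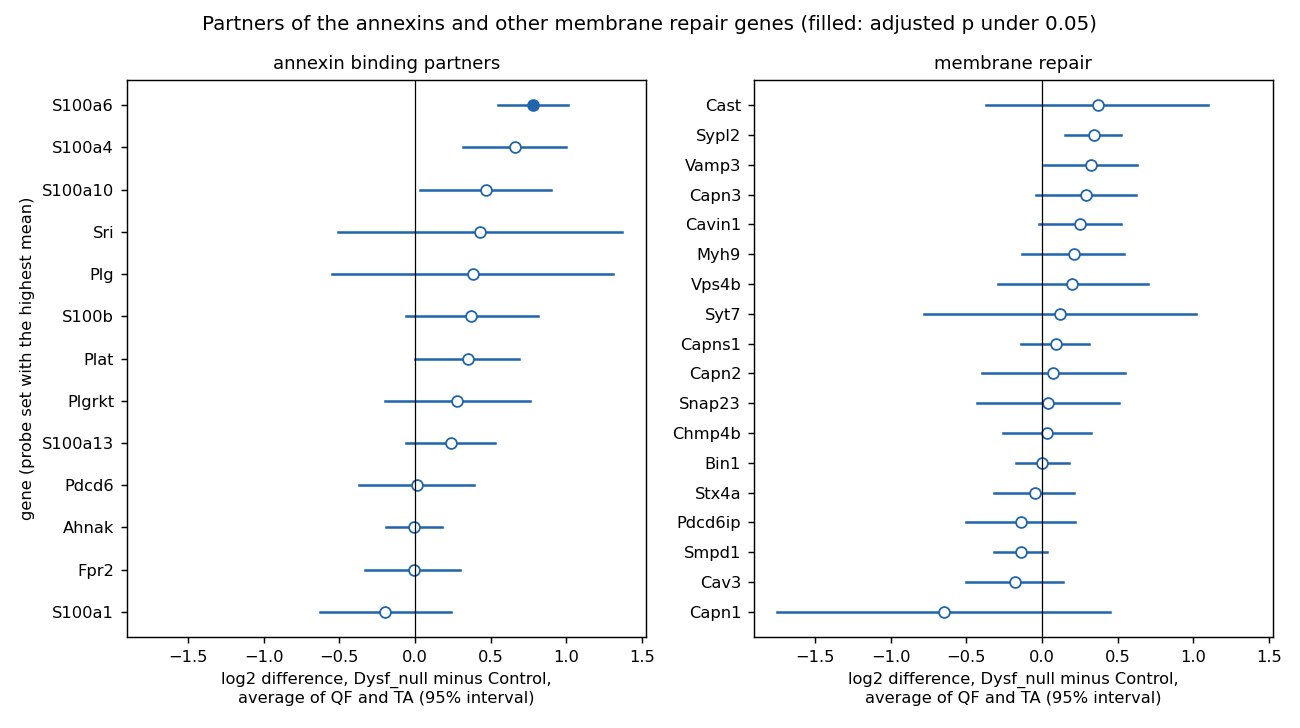
Genotype difference (Dysf_null minus Control, log2, averaged over both muscles) of the 13 measured annexin binding partners (left) and the 18 measured membrane repair genes (right), each on its probe set with the highest mean and with the 95% interval of the limma fit. The 1 filled point, S100a6 at 0.78, passed at an adjusted p under 0.05.

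Genes of membrane repair other than annexins did not pass in any comparison in the fit without the replicate block, for 18 measured of 24 listed, on 27 probe sets. Their median difference was 0.18 in QF, -0.01 in TA and 0.08 in the average. Sypl2, a membrane protein of the triad junction, gave 0.34 ± 0.09 in the average (adjusted p = 0.101, and 0.00671 with the replicate block). Its log2 levels were 11.10, 11.17 and 11.18 in Dysf_null_QF and 10.52, 10.63 and 10.82 in Control_QF, without overlap.

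Myh9, the non-muscle myosin heavy chain that takes part in wound closure, gave 0.51 ± 0.15 in the average on 1 probe set (adjusted p = 0.181, and 0.0438 with the block) and 0.21 ± 0.16 on the other. On the first, 102108_f_at, the difference was 0.94 ± 0.21 in QF (adjusted p = 0.0898, groups without overlap) and 0.07 ± 0.21 in TA. On the other the QF difference was 0.23 ± 0.22. Cavin1, a coat protein of caveolae, gave 0.25 ± 0.13 (adjusted p = 0.733, and 0.0424 with the block) on 1 probe set and 0.00 ± 0.36 on the other. Vamp3, a protein of vesicle fusion, gave 0.32 ± 0.14 (adjusted p = 0.626). With the block 3 of the 18 genes rose in QF, 0 in TA and 3 in the average, against 1.68%, 0.920% and 2.71% of all probe sets, and these were Myh9, Sypl2 and Cavin1. Here too a gene counted where any of its probe sets passed, which gives a gene with several probe sets more chances than the shares allow for.

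Markers of several other cell types differed between the genotypes. The summed intensity of 7 measured fibroblast markers was 26034 to 39147 in Dysf_null_QF and 16227 to 24126 in Control_QF, without overlap. In TA it was 27862 to 41576 in Dysf_null mice and 20618 to 28240 in Control mice, with overlap. Of these 7 markers 2 rose in QF (Col3a1 and Postn), 0 in TA and 3 in the average. Over all probe sets 0.300% were called higher and 0.155% lower in QF. The shares were 0.252% and 0.155% in TA and 0.784% and 0.310% in the average, and they stand beside all marker counts below.

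The sums of tendon, macrophage and red cell markers did not overlap between genotypes in either muscle. Each sum is of linear intensities, so the most abundant genes weigh most in it. Of single probe sets, 4.08% in QF and 6.92% in TA had every Dysf_null array above every Control array. The sum of 3 measured of 6 tendon markers was 1951 to 2043 in Dysf_null_QF and 832 to 1178 in Control_QF, and 1699 to 2422 in Dysf_null_TA and 943 to 1140 in Control_TA, and 2 rose in QF, 1 in TA and 2 in the average. Macrophage markers (10 of 11 measured, with Itgam not above the floor) summed to 1642 to 2277 in Dysf_null_QF and 1135 to 1606 in Control_QF. In TA they summed to 2090 to 2219 in Dysf_null mice and 1840 to 2031 in Control mice. Lyz2 rose in the average, Cd68 fell in TA, and 0 macrophage markers rose in QF or in TA.

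Neutrophil markers ran in opposite directions in the muscles. Their sum over 7 markers was 325 to 451 in Dysf_null_QF and 651 to 810 in Control_QF, but 995 to 1177 in Dysf_null_TA and 319 to 514 in Control_TA. Of the 7, 1 fell in QF (S100a9) and 2 rose in TA (S100a8 and S100a9).

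The sum over 7 endothelial markers was 1610 to 1797 in Dysf_null_QF and 1445 to 1573 in Control_QF, and 1509 to 1651 in Dysf_null_TA and 1501 to 1760 in Control_TA, and 0 passed. Muscle fibre markers (8) summed to 85287 to 97600 in Dysf_null_QF and 91193 to 99266 in Control_QF, and to 76286 to 91615 in Dysf_null_TA and 83455 to 97604 in Control_TA, with 0 passing. Among 3 red cell markers 0 rose in QF and 2 in TA, with sums of 20020 to 26496 in Dysf_null_QF and 15176 to 15543 in Control_QF, and of 21640 to 24761 in Dysf_null_TA and 11233 to 15153 in Control_TA. Of 4 measured lymphocyte markers Thy1, which fibroblasts also carry, rose in QF, and Cd3e and Cd8a were not above the floor. None of 7 myoblast, 3 Schwann cell or 4 fat cell markers passed in a genotype comparison. The part of any of these cell types in the annexin differences was not tested.

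The genes whose levels ran most like each member over the 12 arrays were found by Pearson correlation, given here as a description. The arrays share the groups and both QF arrays that stood apart, and these feed every such value. For Anxa5 they were the tubulin gene Tubb5 (r = 0.96), the tropomyosin gene Tpm4 (0.96) and Crtap (0.94), a protein of collagen modification. For Anxa1, on 93038_f_at, they were Cdr2 (0.96), the membrane protein gene Emp1 (0.94) and Tpm4 (0.94). Anxa3 shared Cdr2 (0.96), followed by Capn6 (0.94) and the lysosomal protease gene Ctss (0.94).

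Anxa2 ran with the chemokine gene Cxcl12 (0.92), Calu (0.92), a calcium-binding protein of the secretory pathway, and the matrix proteoglycan gene Bgn (0.89). Anxa6 ran with S100a1 (0.91), a calcium-binding protein of muscle fibres, and the transcription factor genes Thra (0.91) and Nfic (0.90). Anxa4 ran with Krt36 (0.97), Etf1 (0.97) and Acsf3 (0.94), and Anxa7 with Desi1 (0.87), Dnajb8 (0.87) and Kcnab2 (0.86).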

How the data were processed

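The authors deposited 1 linear intensity for each probe set on each array, scaled to a common mean per array, as the values show. The software they used is not given in the sources used here. From these intensities 66 control probe sets were left out, and the other 12422 were quantile normalized, because array medians differed 1.47-fold. They were floored at the 25th percentile (23.025) and taken to log2, and the test took the 10331 that exceeded the floor on 3 or more arrays. Names came from the platform's annotation: 10833 probe sets had 1 symbol, 396 several and 1193 none, of which only the first kind was named. Gene positions and promoters came from RefSeq (GRCm38.p6).

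Means of the 4 groups were fitted to all 12 arrays with limma 3.58.1 in R 4.3.3 (8 residual degrees of freedom, intensity trend, two-sided tests, Benjamini-Hochberg adjustment over 10331 probe sets) for 6 comparisons. The main fit was checked on simulated data with independent noise between arrays. Same-numbered arrays correlated in these data, so that check gives no error rate for them. Figures used Python 3.11.15 and matplotlib 3.10.9. Arrays have no sequencing depth; the number of arrays sets the precision, with a median SE of 0.323 for 2 groups compared.

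Deviations from the group mean correlated between same-numbered arrays of both genotypes (0.39, 0.71 and 0.66 in QF, 0.18, 0.11 and 0.23 in TA), so the numbers were taken to pair arrays within a muscle, and a fit with them as a block is given where it changes a call. Between muscles they did not (-0.14 to 0.12). Members, gene lists and markers were chosen with earlier results of these data known. Of each list, the genes named are those called in a genotype comparison or the interaction, and up to 4 more with the smallest p for the average. For likeness the 3 nearest genes that are not annexins were taken. Groups compared had 3 arrays and were not tested for outlying arrays.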

Additional observations from a re-analysis of the deposited data

How the results depend on the processing

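Each result was recomputed with other normalizations, floors, filters and variance models, with array weights, with the replicate block, with the compared groups fitted alone, without both QF arrays numbered 2 and without each array in turn. The setting without both QF arrays numbered 2 and normalized again was chosen after seeing the data. Of 1420 alternative values of the 10 annexin probe sets, 1355 kept their direction or their place short of the threshold, 23 came to pass it and 42 no longer did. Most of these values belong to results not called in the main fit, so the count of 1355 says little about the calls. All 42 losses fell on the results that were called, 2 in QF and 3 in the average. None changed sign while called, and 46 changed sign while uncalled in both. The causes of these changes were not tested.

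In QF, 2 annexin probe sets and 47 in all were called. These became 0 and 0 with median scaling or with the QF arrays alone, 1 and 23 with array weights, 0 and 7 without the intensity trend, 5 and 273 with the replicate block, 0 and 2 without both QF arrays numbered 2, and 1 and 16 when normalized again. Without the filter 1 annexin probe set was called. Leaving out 1 array gave 1 to 2 and 21 to 82. The Anxa5 call was lost with median scaling (adjusted p = 0.637) and without the trend (0.0566) and kept in all 12 fits without 1 array (up to 0.0269). The Anxa1 call on 161703_f_at was lost with median scaling (0.473), without the filter (0.102) and without the trend (0.105). It was also lost with array weights (0.109) and with the QF arrays alone (0.507). S100a6 in QF was lost with median scaling (0.637) and without the trend (0.0566), and its average with median scaling (0.49).

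In TA, 0 annexin probe sets and 42 in all were called. These became 3 and 192 with array weights and 2 and 159 with the block. Median scaling gave 27 in all, and 1 annexin was called without the filter or with the TA arrays alone. Leaving out 1 array gave 0 to 0 and 14 to 45. In the average, 3 and 113 became 0 and 27 with median scaling, 5 and 191 with array weights, 1 and 56 without the trend and 5 and 474 with the block, and 1 to 3 and 58 to 132 without 1 array. The mean over its probe sets gave Anxa1 an average difference of 0.69 ± 0.15 (adjusted p = 0.0439).

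For the muscle differences the block took the replicate numbers within each genotype, although same-numbered arrays did not correlate between muscles. In Dysf_null mice, 31 in all became 14 with median scaling, 52 with array weights, 18 with that block and 9 with those groups alone. Without 1 array there were 19 to 38, and 0 annexins were called in each setting. In Control mice, 76 became 31 with median scaling, 42 without the trend, 32 with the block and 21 alone, and 35 to 147 without 1 array. The 0 annexins there became 1 without the filter, and 0 to 1 without 1 array. For the interaction, 7 became 32 with the block within each muscle and 4 to 8 without 1 array, with 0 annexins called in each.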

Other observations

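Of the annexins outside the 8 considered above, 2 had a probe set of their own. Anxa8, an annexin of epithelia, had log2 levels of 6.34, 6.96 and 6.46 in Dysf_null_QF and 6.98, 7.17 and 7.14 in Control_QF. In TA it had 6.10, 6.38 and 6.85 in Dysf_null mice and 6.34, 6.01 and 5.93 in Control mice. Its QF groups did not overlap and ran lower in Dysf_null mice, opposite to Anxa1, Anxa2, Anxa3 and Anxa5. The differences of -0.51 ± 0.31 in QF (adjusted p = 0.93) and 0.35 ± 0.31 in TA (adjusted p = 1) did not pass. Between the muscles of Control mice it gave -1.01 ± 0.31 (TA minus QF, adjusted p = 0.229). Anxa10 did not pass the filter on low values.

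Other proteins bind phospholipid in a calcium-dependent way through C2 domains, among them synaptotagmins, copines and protein kinases C. Of 17 listed, 11 were measured on 14 probe sets, and 0 passed in any genotype comparison with limma, also 0 with the replicate block. The median difference was 0.08 in QF, -0.01 in TA and 0.09 in the average. The smallest unadjusted p-values in the average belonged to Syt2 (-0.42 ± 0.28 on 1 probe set and 0.24 ± 0.30 on the other), Rasal1 (0.27 ± 0.26), Pla2g4a (0.23 ± 0.23) and Prkca (-0.19 ± 0.28).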
